A study of Mus musculus with 7 samples.

Results

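The genes described here encode proteins that hold muscle cells to their surroundings and turn over the actin filaments behind those contacts. They are the integrin genes Itgb1 and Itga7, the talin genes Tln1 and Tln2, the vinculin gene Vcl, the LIM domain protein genes Lpp and Zyx, the cofilin genes Cfl1 and Cfl2, and Wdr1. They were taken by gene symbol, and the list was chosen by function together with the differences already seen between these same 7 libraries. Their differences between the groups are therefore a description and not a test of the set. All 10 symbols were present among the 53819 genes of the table, and all 10 passed the low count filter that left 14935 genes.

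The tissue was quadriceps, a thigh muscle, of male wild-type mice of the inbred strain C57BL/6J, and its RNA was sequenced. At an age of 8 weeks each mouse had 200 µl of AAV8, an adeno-associated virus vector with liver tropism, put into the tail vein, and tissue was collected 54 days after that. The 4 AAV8-Null libraries came from mice given AAV8-Alb-Null and the 3 AAV8-IGFBP1 libraries from mice given AAV8-Alb-IGFBP1, so the controls carried a vector too. IGFBP1 binds insulin-like growth factors in the blood and is secreted chiefly by hepatocytes. Whether every library is a different animal is not stated in the labels, so the p-values and errors speak for the spread of these samples alone, and part of that spread may be technical.

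Integrins are receptors made of an alpha and a beta chain that span the cell membrane and bind the matrix outside the cell. In muscle the integrin of the alpha-7 and beta-1 chains is a main receptor for laminin. Inside the cell talin binds the beta chain and, when it is pulled, vinculin, and both connect to actin; in muscle fibres these contacts lie at costameres, over the edges of the sarcomeres, and at the junction with the tendon. Cofilins cut old actin filaments, and Wdr1, also called actin-interacting protein, speeds the disassembly of cofilin-coated filaments.

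Libraries held 38947453 to 51210360 estimated counts, and an exact two-sided permutation test of these totals over all 35 splits gave p = 0.714 (the smallest possible is 0.0286). Igfbp1 itself had 202, 1425 and 142 counts in AAV8-IGFBP1 replicates 1, 2 and 3, against 0, 0, 0 and 8 in AAV8-Null replicates 1 to 4. Each count of 0 allows up to 3 counts. Of 10 markers of fast fibres and muscle identity, 0 were at 0 in all libraries, and their summed level was 144759 to 168300 CPM in AAV8-Null and 160206 to 176993 CPM in AAV8-IGFBP1 (CPM is the count relative to the TMM-scaled library total, in the usual counts-per-million unit). Mitochondrial transcripts took 15.1 to 18.6% of counts in AAV8-Null and 14.7 to 15.5% in AAV8-IGFBP1, and Rn18s, a ribosomal RNA, 0.593 to 1.32% and 1.09 to 2.29%; their part in the results was not tested.

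The promoters of Vcl, Wdr1 and Lpp are shown. Wdr1 and Lpp are 2 of the 3 genes past the threshold below, and the other, Tln2, had no promoter to show. Among the promoters found, that of Vcl holds the only full match to the CArG box. This is the site bound by serum response factor (SRF), which drives many actin cytoskeleton genes. Each sequence is the 250 bases before the start of the gene from RefSeq, build GRCm38.p6, written 5′ to 3′ on the strand of the gene. The RefSeq set used here gave 9 promoters for 8 of the 10 genes, with 2 for Lpp and none for Tln2 or Itga7. Capitals mark a CArG box, a CArG box with 1 mismatch, or GGAATG, the core of the site bound by TEAD factors, on either strand.
Vcl, chr14:20929148-20929397, plus strand: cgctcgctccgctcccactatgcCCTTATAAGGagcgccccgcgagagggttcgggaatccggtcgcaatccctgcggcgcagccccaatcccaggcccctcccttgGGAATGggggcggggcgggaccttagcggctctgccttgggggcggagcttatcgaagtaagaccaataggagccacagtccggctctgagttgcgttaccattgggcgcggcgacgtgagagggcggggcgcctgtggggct
Wdr1, chr5:38561700-38561949, minus strand: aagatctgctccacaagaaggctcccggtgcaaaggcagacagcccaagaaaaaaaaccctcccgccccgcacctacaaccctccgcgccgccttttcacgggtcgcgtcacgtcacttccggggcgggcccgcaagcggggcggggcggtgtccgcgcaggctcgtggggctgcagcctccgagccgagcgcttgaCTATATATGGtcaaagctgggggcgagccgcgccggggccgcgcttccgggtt
Lpp, upstream start, chr16:24393100-24393349, plus strand: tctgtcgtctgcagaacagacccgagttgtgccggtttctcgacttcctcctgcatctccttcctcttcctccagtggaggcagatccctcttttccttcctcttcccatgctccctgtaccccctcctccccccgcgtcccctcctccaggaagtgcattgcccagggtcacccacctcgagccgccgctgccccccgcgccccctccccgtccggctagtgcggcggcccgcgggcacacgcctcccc
Lpp, downstream start, chr16:24721605-24721854, plus strand: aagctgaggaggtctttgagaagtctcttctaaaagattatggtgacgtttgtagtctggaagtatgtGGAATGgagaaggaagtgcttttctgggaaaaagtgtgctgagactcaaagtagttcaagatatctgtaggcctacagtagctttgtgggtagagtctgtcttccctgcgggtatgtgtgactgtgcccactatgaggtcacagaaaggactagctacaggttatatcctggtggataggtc
The CArG box of Vcl, CCTTATAAGG, began 227 bases before the start, and 1.47% of the 32851 promoters of the same length held such a box. Wdr1 had CTATATATGG, which misses the box at 1 base, 53 bases before its RefSeq start. The Wdr1 window lies inside the gene as bounded in GENCODE M21 (chr5:38526813-38563221), whose start is therefore further upstream. Of all promoters, 17.5% held at least 1 box with 1 mismatch. Cfl1 and Itgb1 each had 1 such near match too. CCAAT (33.8% of all promoters) was found in Vcl, Cfl1 and Cfl2, and GGGCGG (32.7%) in Vcl, Wdr1, Itgb1, Zyx and Cfl2, on either strand. GGAATG was present in the promoters of Vcl and Itgb1 and at the downstream start of Lpp, and 12.6% of all promoters held it or its reverse complement CATTCC. A match is a description of these letters only, and no binding was measured.

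To set the genes beside each other, CPM was divided by the length in kilobases of the longest principal transcript of the gene in GENCODE M21. On this scale of level per length, Cfl2, the cofilin of muscle, was highest in AAV8-Null at 78.2 ± 5.55 CPM per kilobase (SD, n = 4). Itgb1 followed at 47.2 ± 2.62 CPM per kilobase (SD, n = 4). Itga7 (16.5 ± 1.46), Wdr1 (14.7 ± 0.483), Vcl (14.6 ± 1.44), Cfl1 (13.5 ± 1.49), Tln1 (12.8 ± 0.412) and Tln2 (11.3 ± 0.966) lay close together on the same scale, and neighbours in the order from Wdr1 to Tln1 differed by less than the larger of their SDs. Zyx (7.27 ± 1.46) and Lpp (1.19 ± 0.0449) were lowest in CPM per kilobase. In AAV8-IGFBP1 the 2 highest and the 2 lowest genes were the same, while Tln2 came after Itgb1 at 15.6 ± 1.21 and Wdr1 after Tln1 at 10.6 ± 0.758 CPM per kilobase (SD, n = 3). The length of Lpp, 15459 bases, is that of a single long transcript, so its level per length is a low estimate if shorter transcripts were made.

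**Figure D1:**
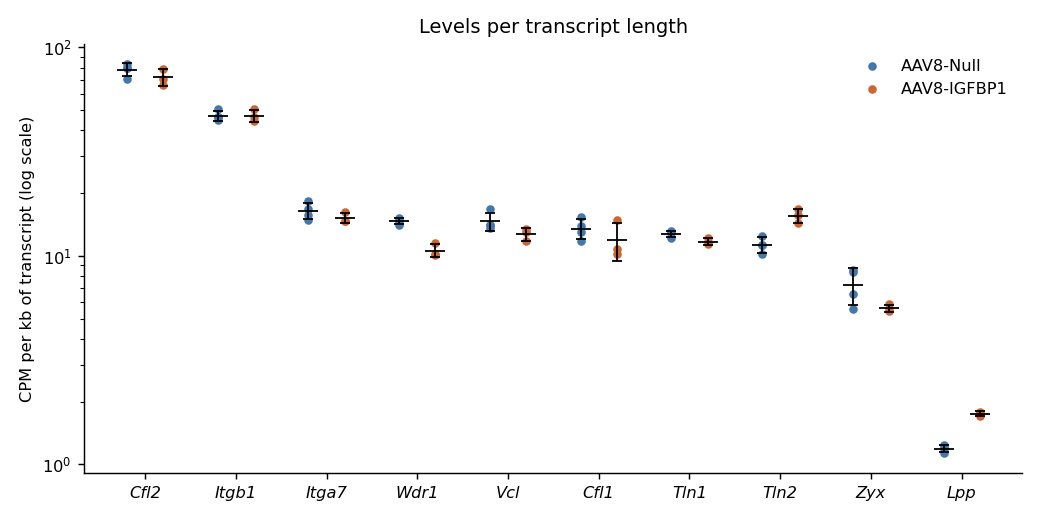
Level of each gene in CPM per kilobase of transcript, on a log scale, for the 4 AAV8-Null (blue) and 3 AAV8-IGFBP1 (orange) libraries. Points are libraries, and black marks are the mean ± SD; Cfl2 is highest in both groups and Lpp lowest.

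In the AAV8-IGFBP1 muscle the 10 genes did not all differ in one direction. Lpp was 1.48-fold and Tln2 1.38-fold higher, Wdr1 was 1.39-fold lower, and Itgb1 was level with the controls. In edgeR's quasi-likelihood test, 3 of the 10 passed an adjusted p of 0.05 over all genes, as did 0.556% of all genes; 2 were higher (0.362% of all genes) and 1 lower (0.194%). The median log2 fold change of the 10 was -0.12 against -0.000653 over all genes tested, and 8 of the 10 lay below 0. The groups did not overlap in 5 of the 10 genes, against 12.3% of all genes tested; 2 were higher (6.33% of all genes) and 3 lower (6.01%). These shares are printed beside the counts only as background, since this contrast helped to choose the genes. DESeq2 called 2 higher (1.57% of the genes it tested) and 1 lower (1.71%), and limma-voom 1 higher (0.295%) and 1 lower (0.121%). Left out in turn, AAV8-Null replicates 1 to 4 gave 1, 2, 2 and 3 of the 10 genes past the threshold (0.129, 0.436, 0.352 and 0.581% of all genes), and AAV8-IGFBP1 replicates 1 to 3 gave 1, 1 and 2 (0.184, 0.151 and 0.414%). Without both libraries numbered 3 there were 2 (0.277%), and with the replicate number as a block 0 by edgeR (0.127%), with 6 at an unadjusted p under 0.05 (10.0% of all genes under the block). The block gives AAV8-Null replicate 4 a level of its own, so it does not enter the group difference, and fewer residual degrees of freedom remain. Under the block Lpp, Tln2 and Wdr1 had log2 fold changes of 0.56, 0.52 and -0.48. In a bulk sample, fewer cells of a type and less RNA per cell cannot be told apart.

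**Figure D2:**
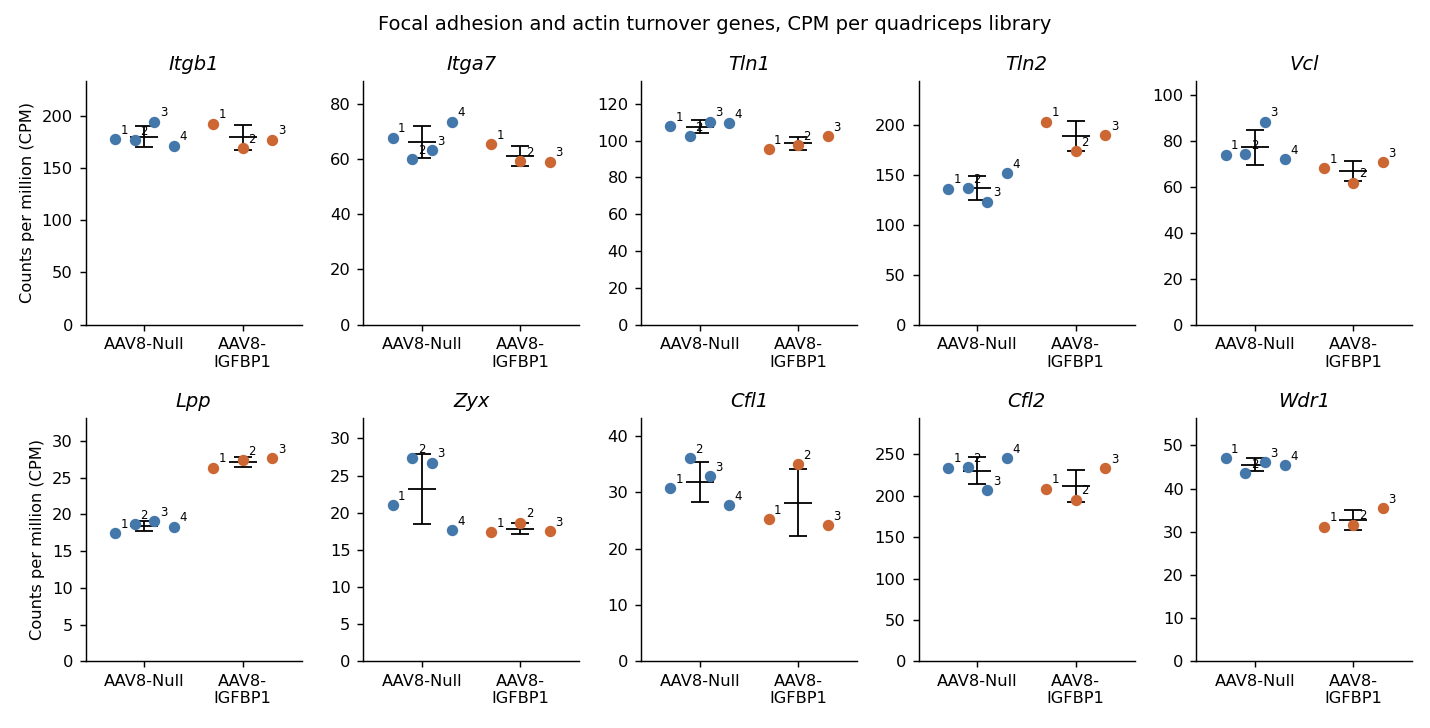
CPM of each of the 10 genes in each library, with replicate numbers beside the points and the mean ± SD in black; each vertical axis starts at 0. Lpp and Tln2 are higher and Wdr1 lower in all 3 AAV8-IGFBP1 libraries than in any of the 4 AAV8-Null libraries.

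Among the receptors, Itgb1, the common beta chain of most matrix-binding integrins, lay at 177, 176, 194 and 171 CPM in AAV8-Null replicates 1 to 4 and at 192, 169 and 177 CPM in AAV8-IGFBP1 replicates 1 to 3. The groups overlapped over nearly their whole range, with means of 179.9 ± 10.0 and 179.3 ± 12.0 CPM (SD, n = 4 and 3). Its log2 fold change was -0.00426 (SE 0.068). Itga7, the laminin-binding alpha chain of muscle, lay at 67.7, 59.996, 63.2 and 73.5 CPM in AAV8-Null and at 65.3, 59.2 and 59.1 CPM in AAV8-IGFBP1. Here too the groups overlapped, and the log2 fold change was -0.11 (SE 0.078). Per length, Itgb1 came after Cfl2 in both groups and Itga7 lay at 15.25 ± 0.894 CPM per kilobase in AAV8-IGFBP1 (SD, n = 3).

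The talin genes differed in direction. Tln1, the talin found in nearly all cells, lay at 107.7, 102.5, 110.2 and 109.2 CPM in AAV8-Null and at 95.3, 97.5 and 102.4 CPM in AAV8-IGFBP1. AAV8-IGFBP1 replicate 3 was only just below AAV8-Null replicate 2, so the groups barely failed to overlap, and the log2 fold change was -0.13 (SE 0.055). Tln2, the main talin of mature striated muscle, lay at 136, 137, 123 and 152 CPM in AAV8-Null and at 204, 174 and 190 CPM in AAV8-IGFBP1. Every AAV8-IGFBP1 library was above every AAV8-Null library, from a mean of 137 ± 11.7 to 189 ± 14.7 CPM (± SD, 4 and 3 libraries; fitted log2 fold change 0.46 with SE 0.081). The Tln2 call was lost without any 1 library other than AAV8-Null replicate 4, with log2 fold changes of 0.41 to 0.52 over all 7 such fits.

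Within each library, the ratio of Tln2 to Tln1 CPM was 1.27, 1.34, 1.12 and 1.39 in AAV8-Null replicates 1 to 4. It was 2.14, 1.79 and 1.85 in AAV8-IGFBP1 replicates 1 to 3. The lowest AAV8-IGFBP1 ratio was above the highest AAV8-Null ratio, and the means were 1.28 ± 0.118 and 1.93 ± 0.186 (SD, n = 4 and 3). This ratio does not depend on how the libraries are scaled. Tln2 was higher and Tln1 lower without overlap, so the ratios had to separate and add no support beyond the values above.

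Vcl, which encodes the vinculin that binds stretched talin and has the CArG box shown above, lay at 74.1, 74.2, 88.4 and 71.98 CPM in AAV8-Null and at 68.3, 61.9 and 70.6 CPM in AAV8-IGFBP1. All 3 AAV8-IGFBP1 libraries were below the controls, but the gap to the lowest control was small and AAV8-Null replicate 3 stood well above the other controls. The log2 fold change was -0.20 (SE 0.084), did not pass the threshold, and was -0.13 without that library.

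Lpp and Zyx encode related LIM domain proteins of adhesion sites and stress fibres, and zyxin recruits Ena and VASP proteins that promote actin assembly. Lpp lay at 17.4, 18.7, 19.1 and 18.3 CPM in AAV8-Null and at 26.3, 27.4 and 27.6 CPM in AAV8-IGFBP1. Both groups were tight and far apart, at 18.4 ± 0.694 and 27.1 ± 0.679 CPM (± SD, 4 and 3 libraries; fitted log2 fold change 0.56 with SE 0.060). Lpp stayed past the threshold without each of the 7 libraries in turn (log2 fold change 0.54 to 0.58), unlike Tln2 and Wdr1.

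Zyx lay at 21.0, 27.3, 26.7 and 17.6 CPM in AAV8-Null and at 17.4, 18.7 and 17.5 CPM in AAV8-IGFBP1. The controls were scattered, AAV8-Null replicate 4 lay within the range of the AAV8-IGFBP1 libraries, and the log2 fold change of -0.38 (SE 0.15) did not pass the threshold. The ratio of Zyx to Lpp CPM was 1.204, 1.46, 1.40 and 0.964 in AAV8-Null and 0.659, 0.682 and 0.635 in AAV8-IGFBP1. All 3 AAV8-IGFBP1 ratios lay below every control, with means of 1.26 ± 0.225 and 0.659 ± 0.0234 (SD, n = 4 and 3). They restate the CPM of Zyx and Lpp given above and are no separate support.

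**Figure D3:**
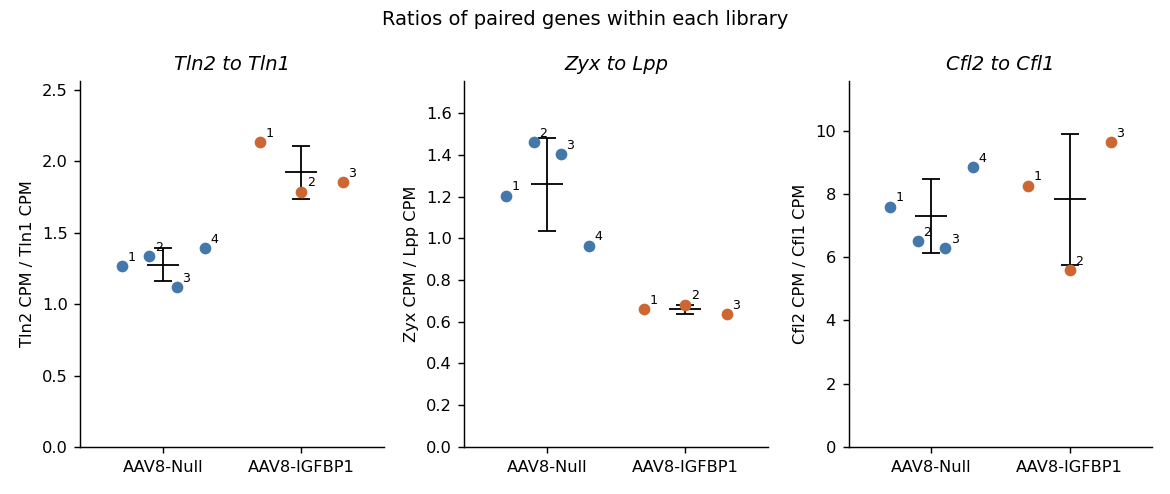
Ratio of Tln2 to Tln1, Zyx to Lpp and Cfl2 to Cfl1 CPM within each library, with replicate numbers beside the points and the mean ± SD in black; each vertical axis starts at 0. The groups separate for Tln2 to Tln1 and for Zyx to Lpp and overlap for Cfl2 to Cfl1.

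Of the actin turnover genes, Cfl1, the cofilin found in most non-muscle cells, lay at 30.8, 36.0, 32.9 and 27.7 CPM in AAV8-Null and at 25.3, 34.9 and 24.2 CPM in AAV8-IGFBP1. AAV8-IGFBP1 replicate 2 was as high as the upper controls, while replicates 1 and 3 were below all of them (log2 fold change -0.18, SE 0.14). With 1 library left out the log2 fold change of Cfl1 ran from -0.37 (without AAV8-IGFBP1 replicate 2) to -0.08 (without AAV8-IGFBP1 replicate 3), with -0.11 without AAV8-IGFBP1 replicate 1 or AAV8-Null replicate 2, and it passed the threshold in 0 of these fits. The estimated counts of Cfl1 were not whole (tolerance 0.005) in 5 of 7 libraries, unlike those of the other 9 genes. The largest distance from a whole number was 0.054 counts, and what this means for the certainty of its counts was not tested.

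Cfl2 lay at 234, 234, 207 and 245 CPM in AAV8-Null and at 209, 195 and 233 CPM in AAV8-IGFBP1. The groups overlapped (log2 fold change -0.12, SE 0.081). The ratio of Cfl2 to Cfl1 CPM was 6.29 to 8.85 in AAV8-Null and 5.58 to 9.64 in AAV8-IGFBP1, so no shift between the cofilins was detectable here.

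The promoter of Wdr1 shown above holds a CArG box with 1 mismatch, as do those of Cfl1 and Itgb1. Wdr1 lay at 47.0, 43.5, 46.2 and 45.4 CPM in AAV8-Null and at 31.2, 31.7 and 35.5 CPM in AAV8-IGFBP1. The groups were far apart, at 45.5 ± 1.49 and 32.8 ± 2.34 CPM (± SD, 4 and 3 libraries; fitted log2 fold change -0.47 with SE 0.065). The call was lost without AAV8-Null replicate 1 (log2 fold change -0.46), AAV8-IGFBP1 replicate 1 (-0.44) or AAV8-IGFBP1 replicate 2 (-0.45). Over all 7 such fits the Wdr1 log2 fold change was -0.53 to -0.44.

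**Figure D4:**
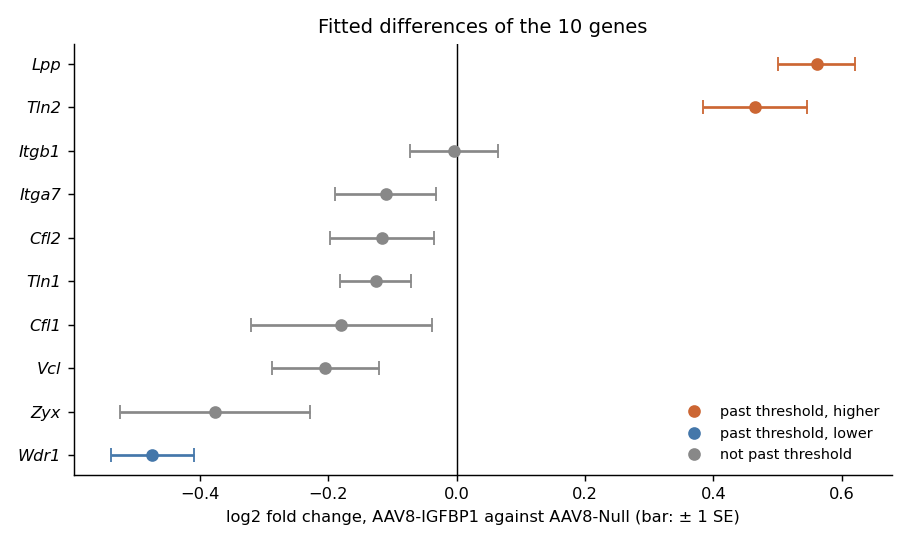
Fitted log2 fold change of each of the 10 genes, AAV8-IGFBP1 against AAV8-Null, with bars of ± 1 SE; colour marks the genes past edgeR's threshold over all genes. Lpp (0.56) and Tln2 (0.46) lie above 0, Wdr1 (-0.47) lowest, and Itgb1 (-0.00426) at 0.

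The spread within groups differed between genes, and for some genes also between the groups. The coefficient of variation in AAV8-Null was 3.22% for Tln1, 3.28% for Wdr1 and 3.77% for Lpp and 20.1% for Zyx. In AAV8-IGFBP1 it was lowest for Lpp, 2.50%, and highest for Cfl1, 21.1%.

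Over the 7 libraries, the genes whose log2 CPM followed each member most closely, out of 10174 searched, had a Pearson r of 0.951 to 0.997 where named here. For Lpp they were Rbm48 (r = 0.997) and Jarid2 (r = 0.994), a cofactor of the Polycomb repressor. For Tln2 they were Abcb4, a phospholipid transporter (r = 0.993), and Rrs1 (r = 0.979), and for Wdr1 they were Ssx2ip (r = 0.993) and Thpo (r = 0.979). Zyx was followed by Elovl1 (r = 0.987) and by Ssh1 (r = 0.98), which encodes a phosphatase that activates cofilin, and Cfl1 by the myosin light chain gene Myl6 (r = 0.975) and by Myd88 (r = 0.97). Tln1 was followed by Iqcg (r = 0.995) and Igf2r (r = 0.990), Vcl by Trim24 (r = 0.984) and Med14 (r = 0.977), and Cfl2 by Pstk (r = 0.986) and Kctd9 (r = 0.983). For the integrin chains they were Tnxb (r = 0.977) for Itgb1 and Tex9 (r = 0.965) and Pigg (r = 0.951) for Itga7. These values describe the 7 libraries of both groups together, so a difference between the groups that 2 genes share enters r. Tln2 and Lpp had r = 0.877 over the 7 libraries but -0.503 with the group means taken out. Tln1 and Wdr1 had 0.927 and 0.865. For the neighbours named here r within groups was not computed, and shared control was not tested.

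Beyond the 10 genes, 183 other genes of adhesion and actin control were listed by function, and 178 were tested. By edgeR 1 of them passed the threshold, 0.562% against 0.556% of all genes. The lists of matrix ligands, other integrins, adaptors, actin linkers and actin turnover each had 0 genes past the threshold. Over all genes, 12.6% had an unadjusted edgeR p under 0.05, DESeq2 called 3.28% and limma-voom 0.415%, and the counts of each list stand beside these shares.

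**Figure D5:**
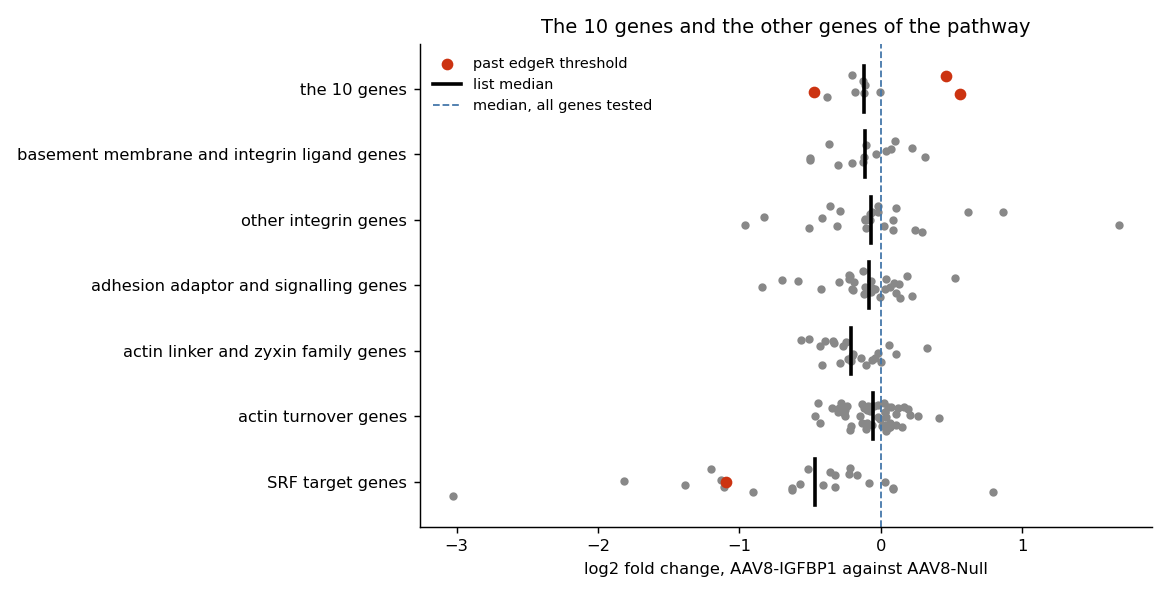
Log2 fold change, AAV8-IGFBP1 against AAV8-Null, of the 10 genes and of the tested genes of 6 pathway lists; each point is a gene, black bars are list medians and the dashed line is the median of all genes tested. Genes past the threshold are Lpp, Tln2 and Wdr1 in the top row and Tagln among the SRF targets.

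Of 14 tested genes for basement membrane and integrin ligands, 5 had a log2 fold change above 0 and 9 below (median -0.11). By edgeR 0 passed, with 4 at an unadjusted p under 0.05 (28.6%, against 12.6% of all genes); DESeq2 called 1, higher (3.28% of all genes), and limma-voom 0. Lamb2, a laminin beta chain of the muscle basement membrane, had 110 ± 8.48 CPM in AAV8-Null and 137 ± 8.47 CPM in AAV8-IGFBP1 (± SD, 4 and 3 libraries; edgeR log2 fold change 0.31 with SE 0.073; adjusted p = 0.114, and 0.0103 to 0.342 over the alternatives). Its groups did not overlap, but Lamb2, Vtn and Nid1 were picked by lowest p. Over the whole list 3 of 14 genes did not overlap (1 higher and 2 lower), against 12.3% of all genes tested. Vtn, which encodes vitronectin, differed by a log2 fold change of -0.50 (adjusted p by edgeR = 0.248, 0.106 to 0.489 over the alternatives), and Nid1, which encodes the laminin-binding linker nidogen, of -0.37 (edgeR adjusted p = 0.292, 0.117 to 0.499 over the alternatives).

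The list of other integrin genes also held Itgb1bp1 and Itgb1bp2, which encode integrin-binding proteins. Of its 24 tested genes, 15 had a log2 fold change below 0 (median -0.07). By edgeR 0 passed, with 4 at an unadjusted p under 0.05 (16.7%, near the 12.6% of all genes). DESeq2 called 2, Itga3 and Itgb1bp2, both lower (3.28% of all genes), and limma-voom 0. Itga3, a further laminin-binding alpha chain, had 5.54 ± 0.437 and 3.90 ± 0.0942 CPM (± SD, 4 and 3 libraries; edgeR log2 fold change -0.50 with SE 0.11; adjusted p = 0.0851, and 0.0153 to 0.273 over the alternatives), with no overlap. Itgb1bp2, which encodes melusin, a muscle protein that binds the beta-1 chain, had 114 ± 6.34 and 91.7 ± 7.42 CPM (± SD, 4 and 3 libraries; edgeR log2 fold change -0.31 with SE 0.072; adjusted p = 0.109, and 0.00879 to 0.370 over the alternatives), again with no overlap. Itgax, a leukocyte integrin, was below 1.4 CPM in every library, with 0.412585 to 1.38 CPM in AAV8-IGFBP1 and a log2 fold change of 1.69 (adjusted p by edgeR = 0.249, 0.0982 to 0.591 over the alternatives). Without AAV8-IGFBP1 replicate 2 its log2 fold change was 0.92, and without both libraries numbered 3 it was 2.28. Itga3, Itgb1bp2 and Itgax were picked by lowest p. Over the whole list 3 of 24 genes did not overlap (1 higher and 2 lower), near the 12.3% of all genes tested.

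Of 30 tested adaptor and signalling genes, 20 lay below 0 (median -0.09), and 0 passed by edgeR, with 7 at an unadjusted p under 0.05 (23.3%, against 12.6% of all genes); DESeq2 called 1, lower (3.28% of all genes), and limma-voom 0. Git1, a scaffold that links paxillin to Rac signalling, had 57.4 ± 0.977 and 46.9 ± 4.52 CPM (± SD, 4 and 3 libraries; edgeR log2 fold change -0.29 with SE 0.070; adjusted p = 0.118, and 0.0168 to 0.318 over the alternatives). Tns3 and Tns1, which encode tensins that tie integrins to actin, had log2 fold changes of -0.43 and -0.23 (edgeR adjusted p = 0.178 and 0.226, highest over the alternatives 0.399 and 0.499). The groups did not overlap for these 3 genes, all lower in AAV8-IGFBP1, but the 3 were picked by lowest p. Over the whole list 7 of 30 genes did not overlap (6 lower and 1 higher), against 12.3% of all genes tested.

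Of 23 tested actin linker and zyxin family genes, 19 lay below 0 (median -0.21), and 0 passed by edgeR, with 4 at an unadjusted p under 0.05 (17.4%, against 12.6% of all genes); DESeq2 called 1, higher (3.28% of all genes), and limma-voom 0. Palld, which encodes the actin bundler palladin, went the other way with 89.8 ± 5.57 and 112 ± 7.25 CPM (± SD, 4 and 3 libraries; edgeR log2 fold change 0.32 with SE 0.069; adjusted p = 0.0820, and 0.00352 to 0.292 over the alternatives). Csrp1, a LIM protein gene of smooth muscle, differed by a log2 fold change of -0.42 (adjusted p by edgeR = 0.250, 0.0993 to 0.462 over the alternatives) and Sorbs3, which encodes the vinculin-binding vinexin, of -0.43 (edgeR adjusted p = 0.373, 0.142 to 0.662 over the alternatives).

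Of 50 tested actin turnover genes, 21 lay above and 29 below 0 (median -0.06), and 0 passed by edgeR, with 9 at an unadjusted p under 0.05 (18%, against 12.6% of all genes); DESeq2 called 2, both lower (3.28% of all genes), and limma-voom 0. Diaph1, a formin that builds actin filaments, had 139 ± 10.7 and 102 ± 15.3 CPM (± SD, 4 and 3 libraries; edgeR log2 fold change -0.44 with SE 0.10; adjusted p = 0.112, and 0.00491 to 0.301 over the alternatives). Ssh2, a cofilin phosphatase, had 83.5 ± 3.47 and 70.1 ± 3.24 CPM (± SD, 4 and 3 libraries; edgeR log2 fold change -0.25 with SE 0.059; adjusted p = 0.117, and 0.0114 to 0.416 over the alternatives). Tmod1, which caps the slow-growing end of sarcomeric actin filaments, differed by a log2 fold change of 0.20 (SE 0.065; adjusted p by edgeR = 0.234, 0.0777 to 0.561 over the alternatives). None of these 3, picked by lowest p, overlapped between the groups. Over the whole list 5 of 50 genes did not overlap (4 lower and 1 higher), against 12.3% of all genes tested.

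Of 24 tested SRF target genes, 20 lay below 0 with a median of -0.46, and 1 passed by edgeR, 4.17% of the list against 0.556% of all genes. At an unadjusted p under 0.05 there were 10 (41.7%, against 12.6% of all genes). Over the whole list 7 of 24 genes did not overlap (6 lower and 1 higher), against 12.3% of all genes tested. Tagln, which encodes the actin-binding protein transgelin of smooth muscle, fell from 11.4, 12.6, 14.2 and 10.5 CPM in AAV8-Null to 6.21, 5.01 and 5.82 CPM in AAV8-IGFBP1. The groups were well separated (log2 fold change -1.10, SE 0.12, edgeR adjusted p = 0.00778, 4.86e-11 to 0.0527 over the alternatives). DESeq2 called 4 of the 24 (3.28% of all genes), 1 higher and 3 lower, and limma-voom 1, lower. Tagln, Acta2, Myl9 and Cnn1 are also in the smooth muscle marker list given below, and each had an unadjusted edgeR p under 0.05. Of the 5 tested actin genes, picked after their values were seen, the lowest and highest log2 fold changes were those of Acta2 and Actc1: smooth muscle actin, Acta2, went from 24.9 ± 7.18 to 10.8 ± 1.34 CPM and cardiac actin, Actc1, from 103 ± 11.4 to 179 ± 40.3 CPM (± SD, 4 and 3 libraries; fitted log2 fold changes -1.20 and 0.79, edgeR adjusted p = 0.0780 and 0.0914, highest over the alternatives 0.239 and 0.365). Neither pair of groups overlapped. Between them lay Actg1 (log2 fold change -0.41, groups not overlapping) and Actb (-0.32), the cytoplasmic actins, and Acta1 (0.08), the skeletal muscle actin, the last 2 with overlapping groups. Acta2 passed without AAV8-Null replicate 3 (log2 fold change -0.98, edgeR adjusted p = 0.00857), and Actc1 without AAV8-IGFBP1 replicate 3 (log2 fold change 0.96). The lowest value of the list, -3.03 for the immediate early gene Egr2, also picked after its values were seen, rested on controls of 0.682 to 11.5 CPM (edgeR adjusted p = 0.375, 0.0648 to 0.622 over the alternatives). Without AAV8-Null replicate 2 the log2 fold change of Egr2 was -1.57, and over all alternatives it was -3.48 to -1.57. Srf itself, which encodes SRF and was picked after its values were seen, lay at 88.7 ± 5.598 and 87.98 ± 2.54 CPM (± SD, 4 and 3 libraries; fitted log2 fold change -0.01 with SE 0.064).

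Among the markers of slow fibres and of other cells in the muscle, Tagln and Sdc4 passed edgeR's threshold, as did 0.556% of all genes. The summed levels overlapped between the groups except for Schwann and satellite cells. The part of these cells and fibres in the values above was not tested. Of 10 smooth muscle and pericyte markers, 8 had a log2 fold change below 0, and Tagln passed; their summed level was 257 to 340 CPM in AAV8-Null and 249 to 270 CPM in AAV8-IGFBP1. Rgs5, a pericyte gene, made up most of that sum, with 147 to 203 and 159.6 to 176 CPM. For each library, the 10 markers' log2 levels, each centred on its mean over the libraries, were averaged. This mean did not overlap between the groups (0.02 to 0.36 in AAV8-Null and -0.33 to -0.21 in AAV8-IGFBP1). The same held for tested Schwann cell markers (-0.147 to 0.377 and -0.346 to -0.159). It held for tested satellite cell markers too (0.0786 to 0.392 and -0.391 to -0.207). For the other marker lists this mean overlapped. Of the 10 smooth muscle and pericyte markers, 4 did not overlap, all lower (Tagln, Acta2, Myl9 and Notch3), against 6.01% of all genes tested. All 10 slow fibre markers lay below 0, with summed levels of 721 to 2192 and 319 to 985 CPM. All 9 fibroblast markers lay below 0 (518 to 830 and 327 to 575 CPM), as did all 9 tenocyte markers (179 to 414 and 82.0 to 331 CPM). All 8 adipocyte markers lay above 0, with 415 to 663 CPM in AAV8-Null and 539 to 1768 CPM in AAV8-IGFBP1, where replicate 2 was highest. Of 10 endothelial markers 9 lay below 0 (234 to 284 and 234 to 248 CPM), as did 7 of 9 macrophage markers (71.6 to 115 and 59.1 to 109 CPM). All 6 tested Schwann cell markers lay below 0 (39.5 to 58.7 and 33.5 to 38.4 CPM), as did 5 of 6 tested satellite cell markers, of which Sdc4 passed (49.97 to 59.6 and 37.5 to 42.8 CPM). No marker of these lists was at 0 in all libraries.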

How the data were processed

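RNA of 7 quadriceps libraries, 4 AAV8-Null and 3 AAV8-IGFBP1, was grouped by sample title. The authors deposited estimated counts per gene symbol; the build was GRCm39, and STAR 2.7.9a, Salmon 1.10.1, R 4.2.2, Trim Galore 0.6.7 and cutadapt 3.4 are named, without their roles, per the submitters' processing notes. Annotation release and strand setting: not given in the sources used here; reads of overlapping genes may be mixed. Counts were rounded and tested with edgeR 4.0.16 (R 4.3.3): filterByExpr (minimum count 10, minimum total 15), TMM scaling, estimateDisp, glmQLFit with robust TRUE and glmQLFTest with group as the only term. P-values were adjusted by Benjamini-Hochberg over 14935 genes, with a threshold of 0.05. SE is |log2 fold change| over the square root of F. Log2 CPM used a prior count of 2. Counts of the 10 genes were 725 to 12119 per library; no counting intervals were computed, and the limit of 3 counts for a count of 0 covers counting error only. Within-group library pairs differed beyond sampling noise (chi-square over its degrees of freedom, 22.2 to 60.0).

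The 10 genes and the pathway and marker lists were chosen with earlier results of these data known. The text names all 10 genes, of each pathway list the genes past the threshold or, where there are none, the 3 with the lowest p, and for each of the 10 the 2 genes with the highest Pearson r (mean log2 CPM at least 1). Of these, 1 such gene and 1 pathway list, whose genes stay in the count over all lists, are not reported here. The steps were tested on simulated data. That check required a recovery only at its largest simulated fold change, above those of the 10 genes, and its outcome is not reported here. The alternatives were DESeq2 1.42.0, limma 3.58.1 voom, other scalings, filters and robust FALSE, a replicate block, and libraries left out. Transcript lengths came from GENCODE M21 and promoters from RefSeq, both on GRCm38, another build than that of the counts, so no gene coordinates are joined to the counts.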

Additional observations from a re-analysis of the deposited data

Results flagged for a closer look

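Vcl was 88.4 CPM in AAV8-Null replicate 3, apart from the other controls at 71.98 to 74.2 CPM. Tns1 was 391 CPM in AAV8-Null replicate 2, below the other controls at 452 to 461 CPM. Acta2 was 35.6 CPM in AAV8-Null replicate 3, above the other controls at 20.2 to 22.4 CPM. Egr2 was 11.5 CPM in AAV8-Null replicate 2, above the other controls at 0.682 to 1.99 CPM. In each case the gap to the nearest control was too large a share of the range of the 4 controls by Dixon's 95% criterion, which chance exceeds in about 1 in 20 groups. The controls of 33 genes were screened, and these 4 exceeded it.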

How the results depend on the processing

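Of 160 refitted values of the 10 genes (16 alternatives), 139 kept their direction and side of the threshold, 16 (11 of Tln2, 4 of Wdr1 and 1 of Lpp) no longer passed, and 5 turned direction. These 5 were all of Itgb1: 0.00369 with no count filter, 0.0438 without both libraries numbered 3, and 0.0355, 0.0387 and 0.00544 without AAV8-Null replicate 3, AAV8-IGFBP1 replicate 2 and AAV8-IGFBP1 replicate 3. With 1 library left out Itgb1 ranged from -0.0571 to 0.0387. Srf turned too, in a range of -0.0521 to 0.0177: 0.00507, 0.0177 and 0.00353 without AAV8-Null replicate 2, AAV8-Null replicate 3 and AAV8-IGFBP1 replicate 2. The count of 3 of the 10 genes was 3 with DESeq2 (3.28% of all genes), 2 with limma-voom (0.415%) and 1 to 3 with 1 library left out (1 without AAV8-Null 1, AAV8-IGFBP1 1 or AAV8-IGFBP1 2). Over all genes the 83 calls became 451 with DESeq2, 306 with no count filter, 42 without both libraries numbered 3 and 19 to 86 with 1 library left out. With no count filter the ligand, other integrin, actin linker and actin turnover lists had 1 call each and the SRF targets 2; with DESeq2 they had 1, 2, 1, 2 and 4, and the adaptors 1. The SRF targets had 3 without both libraries numbered 3 and 1 to 2 with 1 library left out (2 if AAV8-Null 3 or AAV8-IGFBP1 3 was dropped). The cause was not tested. With the replicate number as a block there were 19 calls over all genes and 0 by edgeR among the 10 genes (6 at an unadjusted p under 0.05) and among the SRF targets (11 at an unadjusted p under 0.05), against 1496 (10.0%) of all genes. Same-numbered libraries did not deviate together (r = -0.0984, 0.0682 and -0.0574 across genes, which are not independent replicates), and 0 of the 3 AAV8-IGFBP1 libraries correlated best with its own number, so the numbers were not read as pairs. That Tln1, Vcl and the cofilin genes missed the threshold does not show that they did not differ.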
